A study of Saccharomyces cerevisiae with 3 samples.

Results

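The 34 genes described here form the mating pheromone response of the budding yeast Saccharomyces cerevisiae: the pheromone receptors and their G protein, the kinase cascade, its transcription factors, and the genes for a-factor, agglutination and cell fusion. They were taken by name from the gene spots of the arrays, which measured 6256 genes, and all 34 were found, 22 of them on 2 spots and 12 on 1 spot. Messenger RNA of wild-type cells was compared with that of an HHO1 deletion strain, which lacks the linker histone Hho1p, with and without heat. Cells were grown at 25 °C in the rich medium YPAD to an optical density of 0.5, and the heat-shocked cultures of either strain were then brought rapidly to 37 °C for 15 min. The 3 groups, each on 1 two-colour array, were the HHO1 deletion at 25 °C (Cy3), the HHO1 deletion at 37 °C (Cy3) and the wild type at 37 °C (Cy5). The other channel of every array held wild-type RNA from 25 °C, the common reference and only control. No pheromone treatment is named in the labels. The sources used here give no strain background, mating type or number of deletion clones.

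Haploid yeast cells of either mating type secrete a peptide pheromone and sense that of the other type through a receptor coupled to a heterotrimeric G protein. The freed beta and gamma subunits of that G protein activate a kinase cascade held on a scaffold protein, which ends in the kinases Fus3 and Kss1 and in the transcription factor Ste12. Ste12 then raises transcription of genes for cell cycle arrest, adhesion and fusion, among them genes of the pathway itself, so that many of its members are both parts and targets of it.

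With 1 array a group, no difference below has a replicate check and no test was run. The words rose and fell are kept for a gene whose mean log2 ratio reached a size of 1, which is 2-fold, with no spot under 0.58 in that direction. Errors are SDs between the 2 spots of a gene on an array, where it has 2, and cover neither cultures nor labelling. Net signal means brightness above the background that the scanner software estimated at the spot; it is not normalised, and it is compared only within a gene and within a dye. The share of gene spots well above background was 90% to 90.2% for Cy3 and 94.3% to 95.1% for Cy5. HHO1 itself had a log2 ratio of -4.34 ± 0.16 in the deletion strain at 25 °C and -4.26 ± 0.03 at 37 °C, both over the wild type at 25 °C. As a measure of technical spread within 1 slide, scan and dye, the wild-type reference in Cy5 on one mutant array was set against that on the other: the 34 genes then ranged from -0.59 for FIG1 to 0.25 for FUS2 with an SD of 0.20, none passed the size rule, and 0.169% of all genes did. Across slides and dyes, the mean of these Cy5 references was set against the Cy3 reference of the wild-type array. The range was then -0.45 for AGA1 to 0.28 for FIG1 with an SD of 0.17. None of the 34 genes passed the size rule there, and 0.0341% of all genes did.

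All spots of the 7 a-specific genes, STE2, STE6, BAR1, MFA1, MFA2, AGA2 and ASG7, were well above background in every channel. So were those of the 9 haploid-specific genes, GPA1, STE4, STE5, STE18, FUS3, FAR1, RME1, NEJ1 and HO. Of the 4 alpha-specific genes, the main alpha-factor gene MF(ALPHA)1 was above background in none of the 6 channels, with net signals from -9 to 10. MF(ALPHA)2 was well above background only in the 2 Cy5 reference channels, where its net signal was 14 and 16. STE3, the receptor for a-factor, gave a low signal, and the alpha-agglutinin gene SAG1 was well above background in every channel, with 409 to 510 in the Cy5 reference channels. Of the 34 genes all but FIG1 and STE3 had every spot well above background in all 6 channels. The FIG1 spot was not well above background in the heat-shocked deletion strain, and 1 of the 2 STE3 spots was not in the Cy3 reference.

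After heat most of the pheromone response genes that passed the size rule in the wild type were lower. Of the 34 genes 11 fell and 1 rose, where 16.4% and 11.6% of the 5974 genes measured fell and rose. The median log2 ratio over the 34 genes was -0.64 and that over all genes was near 0, and 11 of the 34 lay above 0 against 50% of all genes. With a smaller size rule, a mean of 0.58 and every spot on that side of 0, 20 were lower and 1 was higher, where 24.5% and 21.6% of all genes were. The genes that fell were the receptor gene STE2, the G beta gene STE4, the G alpha regulator gene SST2, the kinase gene FUS3, the transcription factor gene STE12, the phosphatase gene MSG5, the cell cycle inhibitor gene FAR1, the agglutinin gene AGA1 and the fusion genes FIG1, FIG2 and PRM1. The single gene that rose was STE24, a protease of a-factor maturation. In RNA from whole cultures, fewer cells expressing a gene and less RNA per cell cannot be told apart.

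In the deletion strain, set at 37 °C against itself at 25 °C, 10 of the 34 genes fell and 1 rose, where 15.8% and 11.5% of 5918 genes did. The median was -0.40 and that of all genes near 0, and 10 of the 34 lay above 0 against 49.7% of all genes. By the smaller size rule 15 were lower and 3, STE24, STE11 and STE18, higher, where 24.5% and 21.4% of all genes were. The genes that fell were STE4, STE12, FAR1, AGA1, FIG1, FIG2, PRM1, both a-factor genes, MFA1 and MFA2, and the methyltransferase gene STE14, and STE24 rose. The responses of both strains rest on the same reference RNA, so their values are given side by side. STE2, SST2, FUS3 and MSG5 stood at -0.61, -0.98, -0.96 and -0.70, short of the size rule. Under median centring SST2 and FUS3 reached -1.05 and -1.04, so their lack of a call in this strain depended on scaling. With the scanner's processed signals 20.3% of all genes rose and 18.4% fell in the wild type, and their median was 0.12. Under median centring the deletion strain had 8.13% risen and 17.4% fallen of all genes, with a median of -0.19. Among the 34 genes 2 rose and 12 fell in the former case, and 13 fell and none rose in the latter.

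**Figure D1:**
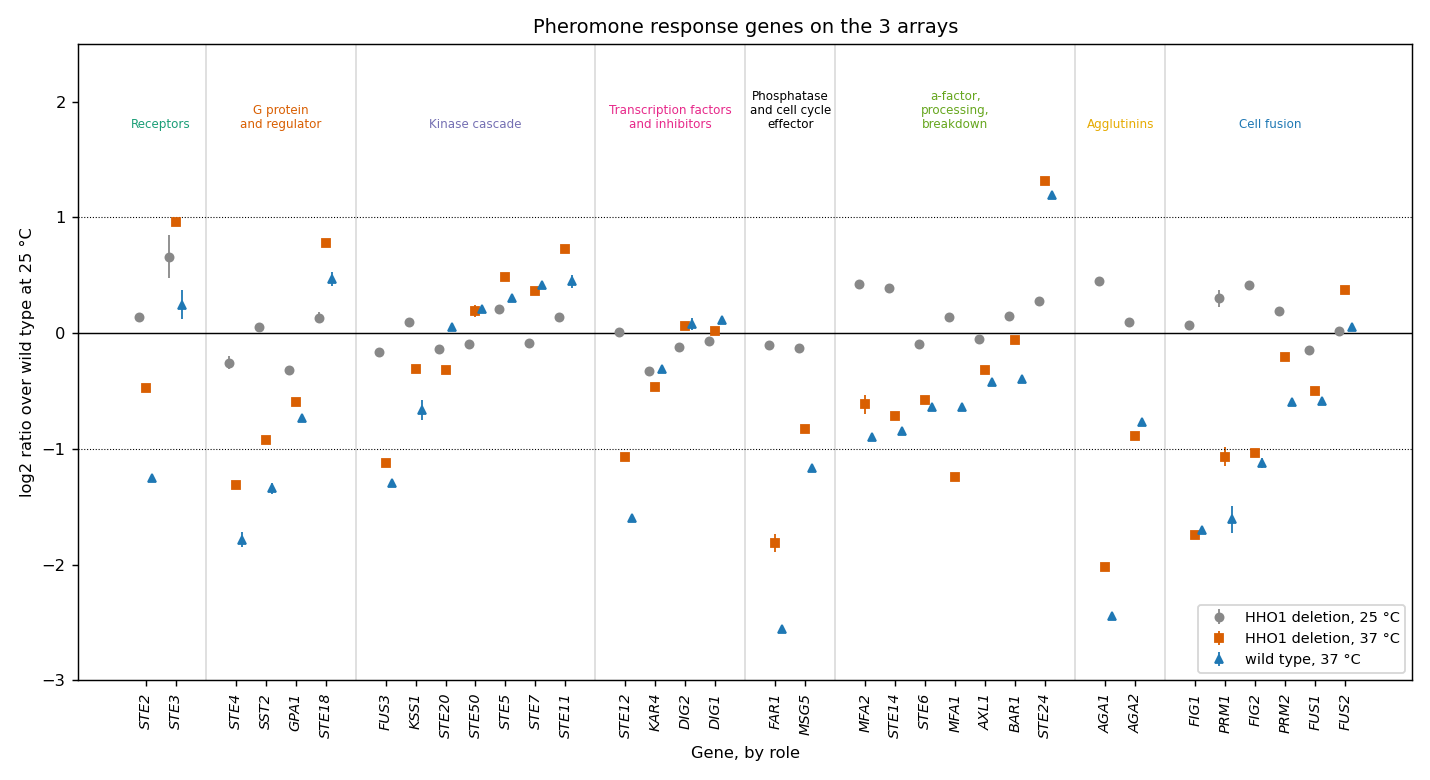
Log2 ratio over the wild type at 25 °C of each of the 34 genes on the 3 arrays, grouped by role and ordered within a role by the wild-type heat response. Points are means over the spots of a gene, bars are the SD between 2 spots (smaller than the point where not visible), and dotted lines mark the size rule at 1 and -1. FAR1 and AGA1 lie lowest at 37 °C in both strains, STE24 lies highest, and the 25 °C points of the deletion strain stay between -0.33 and 0.66.

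The receptor of a cells, STE2, which binds alpha-factor, was measured on 1 spot. Its net signal was 11382 and 9082 in the Cy5 reference channels and 4356 in the heat-shocked wild type, also in Cy5. In Cy3 it was 4440 in the reference, 4095 in the deletion strain at 25 °C and 2606 after heat. Both heat-shocked samples were thus below all 25 °C channels of their dye. The log2 ratio over the reference was -1.25 in the wild type at 37 °C, 2.38-fold lower, and -0.48 in the deletion strain at 37 °C. STE3, the receptor of alpha cells, was near background: net signals were 38 and 39 in the Cy5 reference, 66 in the heat-shocked wild type, 12 in the Cy3 reference, 52 in the deletion strain and 86 in that strain after heat. Its log2 heat response was 0.25 ± 0.13 in wild-type cells and 0.30 ± 0.16 in the deletion strain, and both were negative under median centring. With processed signals of the scanner STE3 was at 1.35 in the wild type and passed the size rule.

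The subunit genes of the G protein had ratios on both sides of 0. STE4, the beta subunit that carries the signal onward, had a net signal of 5683 and 3988 in the Cy5 reference and 1234 in the heat-shocked wild type, and of 1760 in the Cy3 reference, 1530 in the deletion strain and 658 after heat. Its log2 heat response was -1.79 ± 0.07 in wild-type cells and -1.06 ± 0.02 in the deletion strain. STE18, the gamma subunit with which Ste4 works as a dimer, had positive ratios of 0.47 ± 0.06 and 0.65 ± 0.04. GPA1, the alpha subunit that holds the dimer inactive, stood between them at -0.73 ± 0.03 and -0.28 ± 0.01. SST2, which speeds the return of Gpa1 to its inactive state, was at -1.34 ± 0.05 in wild-type cells and -0.98 ± 0.00 in the deletion strain. The gap between the STE4 and STE18 ratios exceeded the spread between spots and the technical spread within 1 slide, scan and dye. Those spreads cover neither cultures nor labelling, nor differences between slides or dyes, and the gap was not tested.

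Most of the kinase cascade stayed below the size rule. STE11, the first kinase of the cascade, was at 0.45 ± 0.06 in wild-type cells and 0.59 ± 0.01 in the deletion strain, and STE7, the kinase that Ste11 activates, at 0.41 and 0.45. The scaffold gene STE5 was at 0.30 ± 0.01 and 0.28 ± 0.00, and STE50, the adaptor of Ste11, at 0.21 ± 0.02 and 0.29 ± 0.06. STE20, the kinase that links Cdc42 to Ste11, was at 0.06 ± 0.00 and -0.19 ± 0.04. These 5 genes lay between -0.19 and 0.59 in both strains. The terminal kinases lay below them. FUS3, the kinase devoted to mating, had a net signal of 3854 and 2940 in the Cy5 reference and 1085 in the heat-shocked wild type, and of 1108 in the Cy3 reference, 1091 in the deletion strain and 545 after heat. Its log2 ratios were -1.29 ± 0.03 and -0.96 ± 0.02. KSS1, the kinase shared with filamentous growth, was at -0.66 ± 0.08 and -0.40 ± 0.03. The median of these 7 genes stood at 0.21 and 0.28.

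Among the nuclear factors STE12 alone passed the rule. Its net signal was 2881 and 2166 in the Cy5 reference against 706 in the heat-shocked wild type, and 928 and 911 in Cy3 at 25 °C against 400 in the heat-shocked deletion strain. The log2 heat response was -1.60 ± 0.03, 3.02-fold lower, in wild-type cells and -1.08 ± 0.03, 2.11-fold lower, in the deletion strain. The genes of its inhibitors, DIG1 and DIG2, stood at 0.11 and 0.08 ± 0.05 in wild-type cells and 0.09 and 0.18 ± 0.01 in the deletion strain. KAR4, a transcription factor gene for nuclear fusion, was at -0.31 and -0.14.

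FAR1 and MSG5, which act on the cell cycle and on the kinases themselves, had negative ratios in both strains. FAR1, an inhibitor of the G1 cyclin-dependent kinase and a polarity adaptor, had a net signal of 3547 and 2459 in the Cy5 reference and 388 in the heat-shocked wild type. In Cy3 the FAR1 signal was 1114 in the reference, 1048 in the deletion strain and 251 after heat. The log2 ratio was -2.56 ± 0.03 in the wild type, 5.89-fold lower and the lowest of the 34 genes there, and -1.71 ± 0.09 in the deletion strain, 3.26-fold lower. MSG5, a phosphatase that acts on Fus3, was at -1.17 and -0.70.

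**Figure D2:**
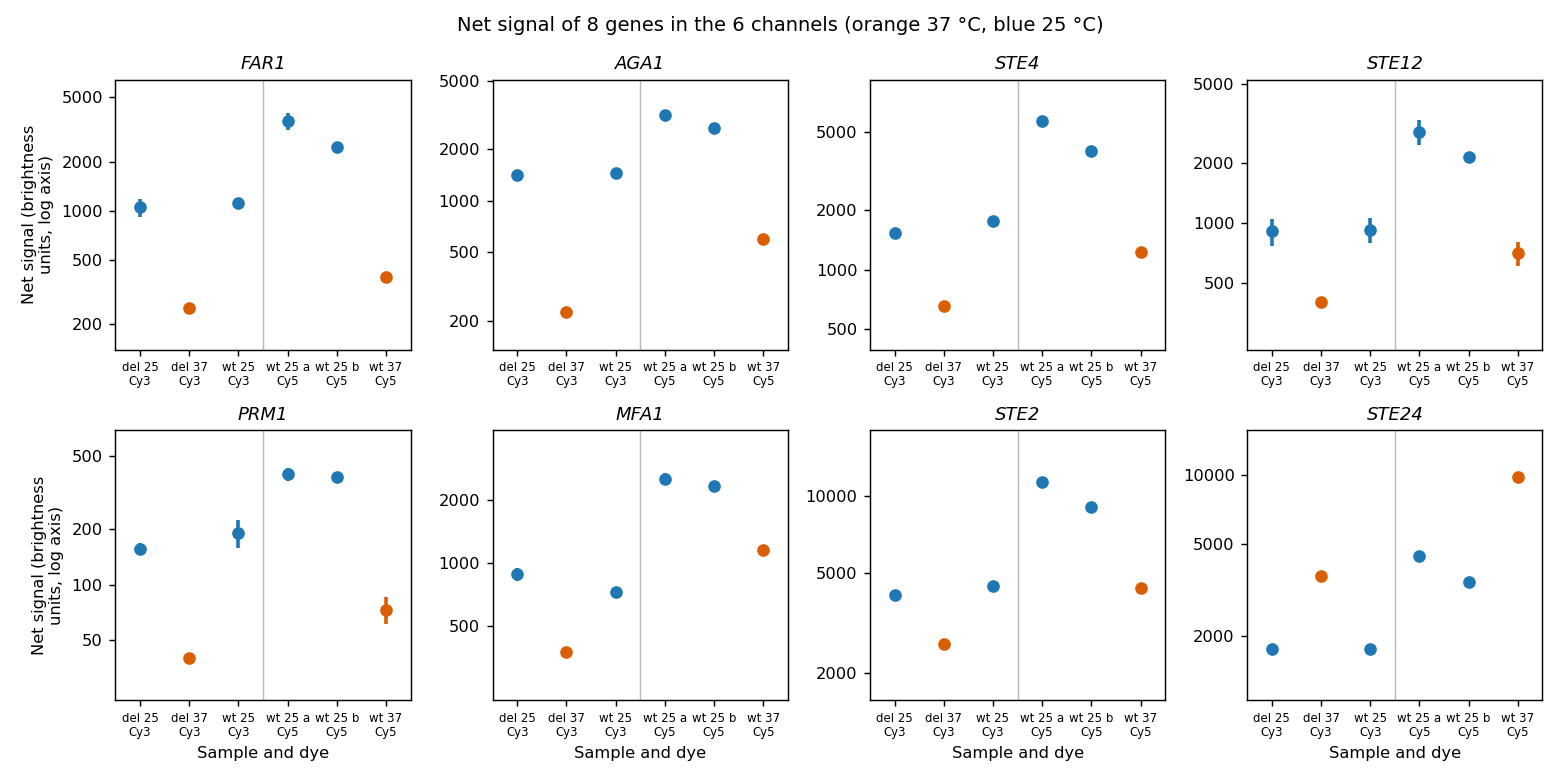
Net signal (brightness above estimated background, log axis) of FAR1, AGA1, STE4, STE12, PRM1, MFA1, STE2 and STE24 in the 6 channels. Del is the HHO1 deletion, wt the wild type, a and b the references hybridised beside the deletion strain at 25 °C and 37 °C; points are means over spots, bars the range of 2 spots, and the grey line parts both dyes. Within each dye the heat-shocked sample lies below every 25 °C channel for all of these genes but STE24, where it lies above them.

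The genes of a-factor and its handling spread from negative to positive. MFA1 and MFA2, which encode precursors of the same pheromone, were at -0.64 ± 0.01 and -0.90 ± 0.03 in wild-type cells and at -1.39 ± 0.01 and -1.04 ± 0.07 in the deletion strain. How well the probes tell these related genes apart was not tested. The MFA1 net signal was 2514 and 2334 in the Cy5 reference against 1155 in the heat-shocked wild type, and 724 and 879 in Cy3 at 25 °C against 376 in the heat-shocked deletion strain. MFA2 signals were 5100 and 4688 against 2564, and 1952 and 2245 against 1293. STE14, the methyltransferase that finishes the carboxyl end of a-factor, was at -0.85 ± 0.03 and -1.10 ± 0.03, STE6, its exporter, at -0.64 ± 0.01 and -0.48 ± 0.03, and AXL1, the protease of the last cleavage, at -0.42 ± 0.00 and -0.27 ± 0.02. BAR1, a secreted protease that degrades alpha-factor, was at -0.40 ± 0.01 and -0.20 ± 0.03.

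STE24 went the other way. This membrane protease, which cuts the a-factor precursor and also clears proteins stuck in the translocation channel of the endoplasmic reticulum, had a net signal of 4440 and 3432 in the Cy5 reference and 9736 in the heat-shocked wild type, and of 1752 in the Cy3 reference, 1751 in the deletion strain and 3653 after heat. Its log2 ratio was 1.20, 2.29-fold higher, in wild-type cells and 1.04, 2.06-fold higher, in the deletion strain, where it missed the size rule under median centring, at 0.86, and, by a small margin, in the authors' deposited table.

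Both agglutinin genes, whose products let mating cells adhere, had negative ratios. AGA1, the subunit anchored in the wall, had net signals of 3169 and 2659 in the Cy5 reference and 598 in the heat-shocked wild type, and of 1456, 1406 and 225 in Cy3 in the reference, the deletion strain and the deletion strain after heat. The log2 ratio was -2.44, 5.43-fold lower, and -2.48, 5.56-fold lower, the lowest value among the 34 genes in the deletion strain. AGA2, the adhesion subunit of a cells, had net signals of 247 and 254 against 79 in Cy5 and of 89 and 87 against 26 in Cy3. Its ratios were -0.77 and -0.99, short of the size rule. It fell in both strains under median centring, with processed signals, in the authors' deposited table and without an offset, and in the wild type also by the same-dye route, at -1.01. Over the alternatives the wild-type value ran from -1.31 with processed signals to -0.44 without background correction.

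Of the 6 cell fusion genes FIG1, FIG2 and PRM1 fell in the wild type, as they did in the deletion strain. FIG1, a membrane protein for calcium entry during mating, had net signals of 298 and 393 in the Cy5 reference and 31 in the heat-shocked wild type, with a log2 ratio of -1.70. In Cy3 it was 141 in the reference, 99 in the deletion strain and 0 after heat. FIG1 was not well above background in the heat-shocked deletion strain. From single Cy3 channels after normexp it was 2.33-fold lower there than in that strain at 25 °C. This value rests on its own dim signal and is no lower bound. The log2 heat response of FIG1 in the deletion strain was -1.81. It ran from -5.33 with processed signals to -1.16 without background correction. PRM1, a membrane protein of the fusion step, was at -1.61 ± 0.12 and -1.37 ± 0.01, with net signals of 399 and 384 against 73 in Cy5 and 191 and 157 against 40 in Cy3. The PRM1 ratios ran from -2.50 and -2.17 with processed signals to -1.08 and -0.96 without background correction. FIG2, a cell wall adhesin, was at -1.12 ± 0.05 and -1.45 ± 0.01. FUS1 was at -0.59 and -0.35, PRM2 at -0.59 and -0.40, and FUS2 at 0.05 and 0.36, each measured on 1 spot. FUS1 and FUS2 act in cell fusion, and the FUS2 value in the wild type turned to -0.10 under median centring.

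The calls at the edge of the size rule depended on scaling. In the wild type STE2, FUS3, SST2, FIG2 and MSG5 lost the call under median centring, at -0.87, -0.89, -0.99, -0.80 and -0.84, and STE2 also in the same-dye comparison of single channels, at -0.98. In the deletion strain STE4, STE12, STE14, MFA2 and PRM1 were at -0.96, -0.95, -0.94, -0.99 and -0.96 without background correction, STE14, MFA2 and FIG2 at -0.72, -0.76 and -0.94 by the same-dye route, and MFA2 at -0.99 on its brighter spot. FAR1 and AGA1 kept the call in both strains in each of the 9 alternatives set at the start, with FAR1 from -2.74 to -2.25 in the wild type and from -1.89 to -1.46 in the deletion strain.

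**Figure D3:**
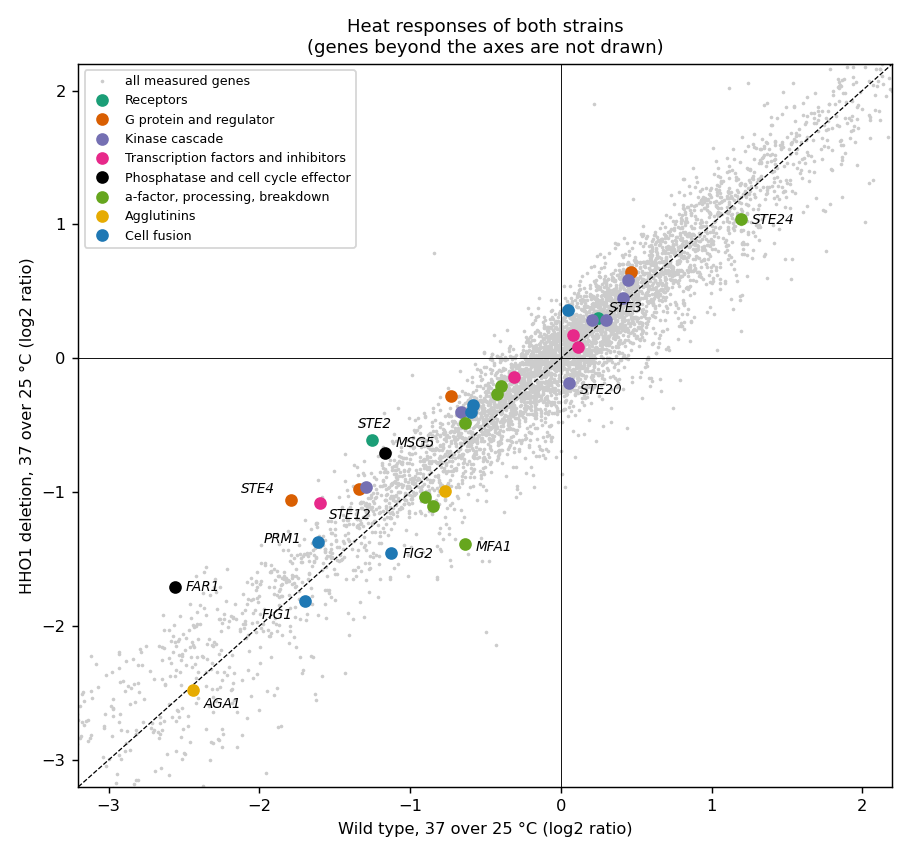
Log2 heat response of the deletion strain against that of the wild type for all measured genes (grey) and the 34 pheromone response genes, coloured by role; the dashed line marks equal responses. FAR1 at -2.56 and -1.71 and STE4 at -1.79 and -1.06 lie above the line, MFA1 at -0.64 and -1.39 lies below it, and AGA1 lies on it at the lower end.

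At 25 °C the log2 ratios of the 34 genes, deletion strain over wild type, lay between -0.33 and 0.66. The deletion strain was in Cy3 and the wild type in Cy5 on this array, so dye cannot be told apart from strain in these ratios. None of the 34 genes rose or fell against the wild type, where 0.0501% of 5984 genes rose and 0.0167% fell. Their median log2 ratio was 0.06 against -0.02 over all genes, with 20 of the 34 above 0 against 46.5% of all genes, and it was -0.02 by the same-dye route. By the smaller size rule STE3 was higher, where 0.384% of all genes were higher and 0.251% lower. The highest values were 0.66 ± 0.19 for STE3, 0.45 for AGA1, 0.43 ± 0.01 for MFA2, 0.42 ± 0.02 for FIG2 and 0.39 ± 0.03 for STE14. The lowest were -0.33 for KAR4, -0.31 ± 0.00 for GPA1, -0.26 ± 0.06 for STE4, -0.16 ± 0.04 for FUS3 and -0.15 for FUS1. The positive end shrank in the same-dye comparison, which set the deletion channel against the Cy3 reference of the wild-type array: AGA1 was then at -0.10, MFA2 at 0.14, FIG2 at 0.04 and STE14 at 0.03.

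STE3 had the highest ratio at 25 °C, on a dim signal. In Cy3 its net signal of 52 in the deletion strain exceeded the 12 of the wild-type reference, and its same-dye value was 0.53. It passed the size rule with processed signals of the scanner, at 2.17, and also in the authors' deposited table, without an offset, and under median centring, where 9.34% of all genes rose. The offset added to dim signals draws its ratio towards 0. With so little signal above a Cy3 background of 213 on that array and 206 on the wild-type array, the size of this difference is poorly fixed.

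At 37 °C none of the 34 genes rose or fell between the strains, where 0.187% of 5895 genes rose and 0.407% fell. The median difference, deletion strain minus wild type, was 0.18 against 0.01 over all genes, and 25 of the 34 genes lay above 0 against 52.0% of all genes. Under median centring the median of the 34 genes turned to -0.20, where that of all genes was -0.37. Dye orientation, slide and scan cannot be told apart from strain here, since the deletion array carried Cy3 on one slide and the wild-type array Cy5 on another. The highest differences were 0.78 for STE2, 0.75 ± 0.11 for FAR1, 0.72 ± 0.10 for STE3, 0.54 ± 0.04 for PRM1 and 0.53 ± 0.00 for STE12. The lowest were -0.61 ± 0.00 for MFA1, -0.38 ± 0.01 for STE20, -0.15 for KAR4, -0.12 for AGA2 and -0.10 for DIG1.

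The strains carried opposite dyes at 37 °C, so no single channels of 1 dye compare them. The same-dye route takes the deletion strain at 37 °C over the wild type at 25 °C in Cy3, minus the wild type at 37 °C over that at 25 °C in Cy5. By it FAR1 was at 0.65, STE3 at 0.48, PRM1 at 0.46 and STE12 at 0.45, while STE2 was at 0.28 and MFA1 near 0. AGA1 turned from 0.42 to -0.39, STE18 from 0.31 to -0.37 and STE24 from 0.12 to -0.44. FAR1, STE3 and PRM1 were above 0 in every one of the 9 alternatives, from 0.21, 0.40 and 0.33 upward, and STE2, STE4 and STE12 in all but median centring, where they were at -0.03, -0.24 and -0.06. By the smaller size rule STE2, STE3 and FAR1 were higher and MFA1 was lower in the deletion strain, where 3.29% of all genes were higher and 3.39% lower.

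**Figure D4:**
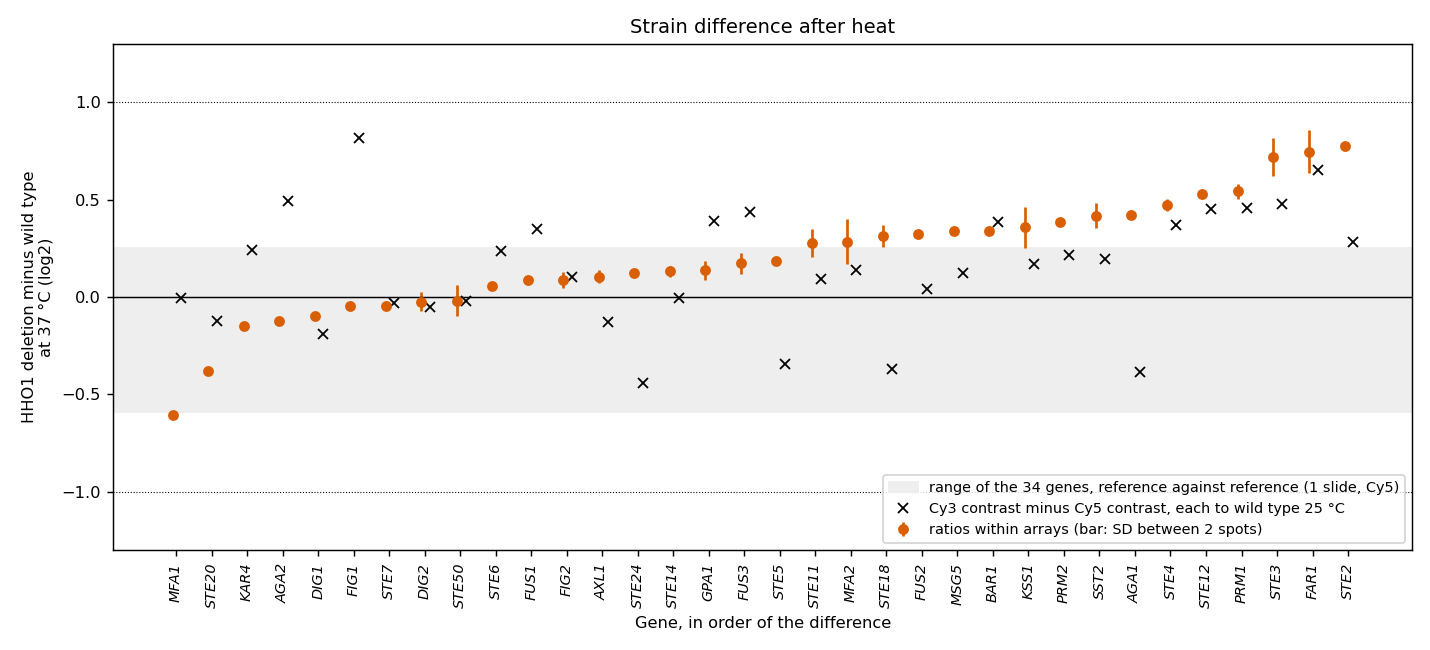
Difference in log2 ratio between the deletion strain and the wild type at 37 °C for each of the 34 genes, from ratios within arrays (points, with the SD between 2 spots) and as a Cy3 contrast minus a Cy5 contrast, each to the wild type at 25 °C (crosses). The grey band is the range of the 34 genes, -0.59 to 0.25, when the wild-type reference in Cy5 on one mutant array was set against that on the other. The band holds the technical spread within 1 slide, scan and dye, not that between slides or dyes; STE2, FAR1 and STE3 have the highest points, all below 1, and the FIG1 values rest on a channel not well above background.

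The difference of heat responses is that of the deletion strain minus that of the wild type. Here too dye orientation, slide and scan cannot be told apart from strain. None of the 34 genes passed the size rule, where the response was higher for 0.375% of 5872 genes and lower for 0.153%. The median was 0.16 against 0.04 over all genes, with 23 of the 34 above 0 against 56.1% of all genes. By the smaller size rule STE2, STE4 and FAR1 had a higher response and MFA1 a lower one, where 2.35% and 2.38% of all genes did. The median was -0.14 against -0.34 under median centring. FAR1 led at 0.85 ± 0.13, having a log2 response of -2.56 in wild-type cells and -1.71 in the deletion strain, and it was at 0.75 by the same-dye route. STE4 followed at 0.73 ± 0.09 and 0.63 by the same routes, STE2 at 0.64 and 0.46, STE12 at 0.52 ± 0.00 and 0.52, and MSG5 at 0.46 and 0.22. These 5 genes were above 0 in each of the 9 alternatives, with the lowest values, 0.49, 0.19, 0.02, 0.09 and 0.07, under median centring. At the other end were MFA1 at -0.75 ± 0.01, FIG2 at -0.33 ± 0.06, STE14 at -0.26 ± 0.00, STE20 at -0.24 ± 0.03 and AGA2 at -0.22. MFA1 was at -0.21 in the same-dye comparison, FIG2 at 0.06 and AGA2 at 0.28. The same-dye and the main values share the heat-shocked channels, and the wild-type heat response enters both the difference at 37 °C and the difference of responses, so these values are not independent of each other.

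By role, the 4 genes of the G protein and its regulator had positive differences of responses, with a median of 0.41, and -0.09 under median centring. STE18 was at -0.27 by the same-dye route. The 7 kinase cascade genes had a median of 0.08, the 6 fusion genes 0.21, and the 7 genes of a-factor and its handling -0.14. Role groups of this size were described and not tested, and medians of 2 to 7 genes rest on single members.

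A further 38 genes of mating and its machinery were listed beside the 34, among them alpha-factor processing, polarity and pheromone-induced genes. In the wild type 35 were measured, of which 4 rose with heat and none fell, where 11.6% and 16.4% of all genes did. In the deletion strain 4 of 36 rose and 1 fell, where 11.5% and 15.8% of all genes did. PRM6, not called in either strain, was not well above background in either heat-shocked sample. Its ratios of -0.65 ± 0.15 and -0.64 ± 0.10 are thus poorly fixed. The PRM6 net signal was 115 and 91 in the Cy5 reference and 0 in the heat-shocked wild type. In Cy3 it was 28 in the reference, 32 in the deletion strain and -3 after heat. The risen genes of the wild type, with the value in the deletion strain second, were PRM5, a pheromone-induced membrane protein gene also known from cell wall stress, at 2.11 and 1.85, AFR1, which shapes mating projections and regulates the alpha-factor receptor, at 2.02 and 2.35, PRM10 at 1.21 and 1.23, and PTP2, a tyrosine phosphatase of stress and mating kinases, at 1.04 and 1.09. SPA2, a polarity protein gene, was at -0.91 in the wild type and fell by 1.07 on the log2 scale in the deletion strain. The median of this list was -0.02 and 0.04. The factor genes MCM1, at 0.10 and near 0, and TEC1, at 0.22 and 0.69, the latter a partner of Ste12 in filamentous growth, did not pass the rule. In the comparisons between strains none passed it of the 37 genes measured at 25 °C or of the 35 measured at 37 °C and for the difference of responses.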

How the data were processed

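Gene expression was measured on 3 two-colour Agilent arrays, of 10263 gene spots and 526 control spots each. The deposited files hold spot intensities from Feature Extraction 9.1.1.1, per the file headers, and processed intensities that this software background-subtracted and dye-normalised. The log10 ratio in the deposited files is red over green. The authors' deposited table of log2 ratios was made with limma, per the submitters' processing notes, but the sources used here give neither its steps nor its centring. Its columns correlated with the log2 ratios used here at 0.867, 0.977 and 0.983 (deletion strain at 25 °C, at 37 °C, wild type), as sample over reference, with medians of -0.013, -0.050 and -0.020.

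The backgroundCorrect (normexp, offset 50) and normalizeWithinArrays (loess) steps of limma 3.58.1 were run in R 4.3.3, with control and flagged spots at weight 0. No spot was saturated, and none of the 56 spots of the 34 genes was flagged. A spot entered a comparison if 1 channel or both were well above background on each array used, and spots of a gene were averaged. The number of arrays limits precision. Net signals use the software's background, 206 to 213 in Cy3, where median brightness around the spots was 48 to 49. The log2 ratios were instead made from that brightness around the spots, by normexp with its offset of 50. The offset draws ratios of dim genes towards 0, so these can be smaller than their net signals would give. The same-dye route sets single channels across arrays after loess and Aquantile; at 37 °C and for the difference of responses it is a Cy3 contrast minus a Cy5 contrast. The members, lists and rules were chosen with earlier results of these data known. Genes to be described in full were those past the size rule, role leaders and the 5 highest and lowest per strain comparison. Net signals are given for only some of them, and SST2, MSG5, FIG2 and STE14 are among those without. Calculations were tested on simulated data. Symbols of all 34 genes match the R64 table, and no coordinates or sequences are given.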

Additional observations from a re-analysis of the deposited data

Results flagged for a closer look

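STE20 encodes the kinase that links Cdc42 to Ste11. It alone of the 34 genes had all spots above 0 in the wild-type heat response and below 0 in that of the deletion strain. Its log2 responses were 0.06 ± 0.00 and -0.19 ± 0.04, a difference of -0.24 that was not tested and is below the size rule. In the same-dye comparison the wild-type value was -0.07, so the opposite signs were not kept there. Groups of 1 array allow no search for outlying samples.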

How the results depend on the processing

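No paired analysis was possible because no group had more than 1 array. The smaller size rule was added after seeing the data. Promoter motifs and protein sequences were not analysed here. No call among the 34 genes changed sign. The larger moves of the median of the 34 genes, listed where they exceed the typical SD of 1 gene across its spots, which is no test of a median, were these. In the wild-type heat response, -0.64, it was -0.71 in the deposited table, -0.37 under median centring and -0.49 without background correction. In the heat response of the deletion strain, -0.40, it was -0.52, -0.48 and -0.30 in those settings and -0.48 without an offset. At 25 °C, 0.06, it was 0.13 with processed signals and -0.019 by the same-dye route. At 37 °C, 0.18, and for the difference of responses, 0.16, it was -0.20 and -0.14 under median centring, where the medians of all genes were -0.37 and -0.34. Counts of genes risen or fallen moved at 25 °C from 0 to 1, STE3, under median centring, with processed signals, in the deposited table and without an offset. Of all genes 9.34%, 0.418%, 0.1% and 0.0836% rose in these settings, and 0.1%, 1.27%, 0.267% and 0.117% fell. At 37 °C the counts moved from 0 to 3 (STE3, PRM1 and MFA1) under median centring, where 10% of all genes rose and 10.3% fell. With processed signals the count was 2 (STE3 and FIG1), where 0.492% of all genes rose and 5.77% fell. It was 1 (STE3) in the deposited table and without an offset. There 0.475% and 1.07% of all genes rose, and 1.7% and 1.37% fell. For the difference of responses the counts moved from 0 to 1 under median centring (MFA1) and with processed signals (FIG1, -1.97). Of all genes 4.6% and 4.38% had a lower response in these settings, and 0.851% and 0.375% a higher one. In the deletion strain's heat response 11 became 6 without background correction, where 9.8% of all genes rose and 13.4% fell. The smaller size rule gave 21, 18, 1, 4 and 4 genes in the wild-type response, the deletion response, at 25 °C, at 37 °C and for the difference. The cause of these shifts was not tested. Signal over background limits FIG1, STE3, AGA2 and PRM1.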

Other observations

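RME1, a repressor of meiosis transcribed in haploid cells, rose in the heat-shocked deletion strain at a log2 ratio of 1.42 ± 0.00, and was at 0.87 ± 0.04 in the wild type. The difference of responses was 0.55 ± 0.04, and 0.57 in the same-dye comparison. NEJ1, a haploid-specific gene of DNA end joining, was at -0.38 and -0.45. HO, also on the haploid-specific list, was lower after heat by net signal. It had 3473 and 2212 in the Cy5 reference against 59 in the heat-shocked wild type. In Cy3 it had 845 in the reference, 830 in the deletion strain and 32 in that strain after heat.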
